A study of Mus musculus with 9 samples.

Results

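The 4 Hox gene clusters of the mouse genome were examined for peaks of H3R2me2a, the asymmetric dimethylation of arginine 2 of histone H3. They were taken by position in the build mm10 as HoxA (chr6:52150000-52270000), HoxB (chr11:96190000-96370000), HoxC (chr15:102910000-103040000) and HoxD (chr2:74660000-74770000). These 540 kb hold 39 of the 21631 protein-coding genes on the chromosomes compared, with 11 genes in HoxA, 10 in HoxB, 9 in HoxC and 9 in HoxD. The regions were set by position, but the Hox genes were chosen with earlier results of these data known.

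The chromatin came from mouse bone marrow cells, which the series calls leukemia cells, of 3 genotypes. These were wild type (WT), cells without Prmt6 (Prmt6KO) and cells without Igf2bp2 (Igf2bp2KO), a gene for a protein that binds m6A-modified RNA. All were grown with interleukin 3, interleukin 6 and stem cell factor, and the cells were fixed with formaldehyde for chromatin immunoprecipitation with sequencing (ChIP-seq). Each genotype had 2 H3R2me2a libraries, compared here, and 1 input library, not analysed here. The leukemia driver, the strain, age and sex of the animals, and how each gene was deleted are not given in the sources used here. Whether libraries of the same genotype stem from separate mice or cultures is unstated, so their spread may be technical.

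Hox genes encode homeodomain transcription factors that give the embryo its positional identity from head to tail. They lie side by side in an order that matches where and when each is switched on. In the blood system the genes of the middle of HoxA and HoxB are active in stem and progenitor cells and are turned down as cells mature, and Hoxa9 with its partner Meis1 can drive acute myeloid leukemia. The MLL complex keeps Hox genes active and methylates lysine 4 of histone H3, while Polycomb complexes keep them silent. PRMT6 is the main enzyme that writes H3R2me2a, and this mark hinders the MLL complex from methylating the neighbouring lysine.

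The lists differed in size and in how low they reached, so a count of peaks means little outside its own list. On chromosomes 1 to 19 and X there were 162454 and 133960 peaks in WT, 812414 and 430225 in Prmt6KO, but 961 and 1221 in Igf2bp2KO. Lists started at summits of 4 fragments in both WT libraries, of 2 and 3 in Prmt6KO and of 8 and 7 in Igf2bp2KO, over a background of 0.737 to 1.46 fragments. Read totals are not given in the sources used here. WT replicate 1 stood apart, with a density on the X chromosome of 0.181 times that of its other chromosomes against 0.958 to 1.22 in WT replicate 2 and Prmt6KO. No Hox cluster lies on X. Of the blood stem cell and myeloid markers 3 of 10 had a peak at a gene end in both Prmt6KO libraries, where 29% of all genes did, and 1 of 10 in both WT libraries, where 3.56% did. The counts were 1 and 0 of 5 for erythroid markers, 2 and 0 of 5 for lymphoid markers, and 2 and 0 of 6 for markers of stroma and endothelium. These peaks do not measure expression, and a part of other cells in the results was not tested.

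The promoters of the clusters differ widely in their content of G and C, and in the WT and Prmt6KO lists the richest promoters held peaks least often, as described below. RefSeq promoter windows of GRCm38.p6, the build mm10, were matched for 22 of the Hox genes, with 24 windows in all. Shown are the 250 bases before the start of 5 of them, 5′ to 3′ on the strand of the gene, with each CG pair in capitals. Hoxd10 (chr2:74691641-74691890, plus strand) is the promoter that held a peak. Hoxa13 (chr6:52260881-52261130, minus strand) and Hoxd4 (chr2:74721728-74721977, plus strand) had the highest and the lowest content of G and C. Hoxa7 (chr6:52218574-52218823, minus strand) and Hoxa9 (chr6:52227371-52227620, minus strand) are leukemia-associated genes that lie side by side.
Hoxd10: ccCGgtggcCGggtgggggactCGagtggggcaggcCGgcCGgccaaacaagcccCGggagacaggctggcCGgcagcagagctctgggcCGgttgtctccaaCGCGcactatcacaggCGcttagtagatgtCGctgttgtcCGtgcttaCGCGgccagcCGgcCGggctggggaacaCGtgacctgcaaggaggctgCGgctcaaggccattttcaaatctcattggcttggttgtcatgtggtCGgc
Hoxa13: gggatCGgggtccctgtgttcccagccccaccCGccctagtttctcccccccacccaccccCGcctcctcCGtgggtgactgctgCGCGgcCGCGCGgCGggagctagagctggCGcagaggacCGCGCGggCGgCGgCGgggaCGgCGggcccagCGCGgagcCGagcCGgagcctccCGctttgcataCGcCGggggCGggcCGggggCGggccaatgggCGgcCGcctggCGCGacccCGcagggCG
Hoxd4: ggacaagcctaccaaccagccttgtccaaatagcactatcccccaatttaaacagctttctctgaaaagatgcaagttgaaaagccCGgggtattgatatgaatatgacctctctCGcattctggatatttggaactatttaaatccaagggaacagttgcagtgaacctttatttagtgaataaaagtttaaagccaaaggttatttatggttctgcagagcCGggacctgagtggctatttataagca
Hoxa7: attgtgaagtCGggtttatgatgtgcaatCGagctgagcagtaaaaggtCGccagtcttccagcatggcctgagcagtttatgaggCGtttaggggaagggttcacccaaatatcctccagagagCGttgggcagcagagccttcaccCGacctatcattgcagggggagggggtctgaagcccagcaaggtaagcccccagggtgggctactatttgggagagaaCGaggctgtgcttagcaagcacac
Hoxa9: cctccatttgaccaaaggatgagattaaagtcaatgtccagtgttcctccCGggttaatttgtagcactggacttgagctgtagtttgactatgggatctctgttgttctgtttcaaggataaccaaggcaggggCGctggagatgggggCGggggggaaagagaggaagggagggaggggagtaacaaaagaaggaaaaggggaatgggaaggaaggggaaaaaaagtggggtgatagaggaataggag
The Hoxa13 stretch holds 35 CG pairs and 80% G and C, and the Hoxd4 stretch 3 pairs and 40.4%. The Hoxd10 stretch holds 20 pairs (65.6%), the Hoxa7 stretch 7 (54.8%) and the Hoxa9 stretch 3 (49.6%). CG was searched as these 2 letters, which read the same on both strands. All 24 Hox stretches held it, as did 92.2% of the 32619 promoters in the table. At least 10 pairs stood in 15 of the 24 Hox stretches and in 38.0% of all promoters.

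The clusters also carry miRNA genes. One, Mir615 in HoxC, has other seeds and its sequences are not shown. The others belong to 2 families that repress Hox messenger RNAs and are transcribed with their neighbours. Their mature sequences from RefSeq are shown with the seed, bases 2 to 8, in capitals, because the families are defined by it.
miR-196b-5p (HoxA): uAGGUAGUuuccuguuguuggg
miR-196a-5p (HoxB and HoxC): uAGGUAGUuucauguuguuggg
miR-10a-5p (HoxB): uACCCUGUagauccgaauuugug
miR-10b-5p (HoxD): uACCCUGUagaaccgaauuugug
The miR-196 members share the seed AGGUAGU and the miR-10 members the seed ACCCUGU.

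H3R2me2a peaks were sparse in the Hox clusters in every WT and Prmt6KO library. Over the 4 clusters together WT replicate 1 had 17 peaks where its mean density gave 34.1, and WT replicate 2 had 9 where it gave 28.1. Prmt6KO replicate 1 had 137 peaks for 170.6, and Prmt6KO replicate 2 had 26 for 90.4. The observed count was thus 0.498 times the expected one in WT replicate 1 (exact Poisson 95% interval 0.290 to 0.798), 0.320 in WT replicate 2 (0.146 to 0.607), 0.803 in Prmt6KO replicate 1 (0.674 to 0.949) and 0.288 in Prmt6KO replicate 2 (0.188 to 0.422). The intervals cover counting error alone, and each lies below 1. In Prmt6KO replicate 1 this did not hold for each cluster. Its ratios in HoxA, HoxB and HoxC were 0.897, 0.985 and 0.876, with intervals that include 1. In HoxD of that library the ratio was 0.317 (0.158 to 0.566). Both WT values lay between the values of Prmt6KO replicate 2 and Prmt6KO replicate 1.

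A density under the mean is common in these lists, so the ratios were read against bins of 100 kb over the genome. Of these bins 55.5% and 59.9% lay below the mean in the WT lists, and 49.2% and 48.4% in the Prmt6KO lists. A ratio of 0.333 or less was found in 10.5% and 14.8% of bins in WT, 0.618% in Prmt6KO replicate 1 and 5.55% in Prmt6KO replicate 2. The clusters are longer than these bins, so the shares are a guide only. Peaks covered 0.717% and 0.390% of cluster bases in WT against 1.70% and 1.42% of the genome, and 7.13% and 1.28% in Prmt6KO against 8.89% and 4.64%.

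**Figure D1:**
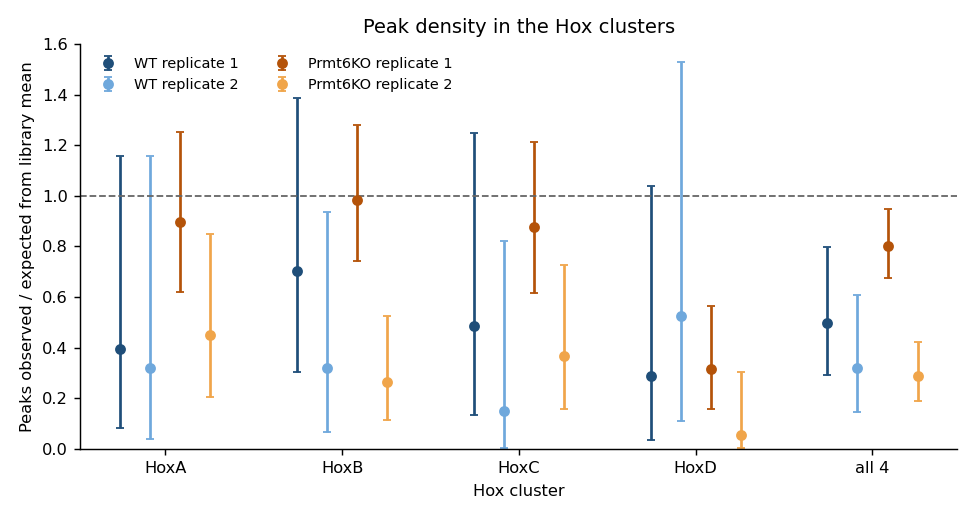
Observed peaks divided by the peaks expected from the library's mean density (vertical axis, linear scale) in each Hox cluster, with 1 point per library and exact Poisson 95% intervals as bars. All points lie below the dashed line at 1, from 0.985 in HoxB of Prmt6KO replicate 1 to 0.0543 in HoxD of Prmt6KO replicate 2.

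HoxA is the cluster with Hoxa5, Hoxa7, Hoxa9 and Hoxa10, genes tied to blood stem cells and leukemia. It held 3 and 2 peaks in WT, 34 in Prmt6KO replicate 1 and 9 in Prmt6KO replicate 2. Relative to the library mean these were 0.396 and 0.320 in WT and 0.897 and 0.448 in Prmt6KO. Both Prmt6KO values lay above both WT values, by 0.69 on the log2 scale of (observed + 0.5)/(expected + 0.5) (WT -1.32 ± 0.16, Prmt6KO -0.64 ± 0.68, SD, n = 2 each). The two-sided exact permutation p was 0.333, the smallest that 2 libraries against 2 allow, and 23.2% of 100 kb bins had both Prmt6KO values above both WT values. Against the rest of chromosome 6 the difference was 0.71 (exact permutation p = 0.333). Against the library mean it fell to 0.21 without Prmt6KO replicate 1 and was 1.16 without Prmt6KO replicate 2.

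HoxB includes Hoxb4, which expands blood stem cells when overexpressed, and Hoxb3, which spans 40.8 kb. It held 8 and 3 peaks in WT and 56 and 8 in Prmt6KO. Relative to the mean these were 0.703 and 0.320 in WT and 0.985 and 0.266 in Prmt6KO, so the WT values lay between the Prmt6KO values. The difference was 0.05 on the log2 scale (WT -0.99 ± 0.72, Prmt6KO -0.94 ± 1.29, SD, n = 2 each, exact permutation p = 1). HoxB also lies in a stretch where WT peaks were few: the 2 Mb beyond 100 kb on either side had 0.530 and 0.389 times the WT mean. Against that neighbourhood HoxB held 1.33 and 0.823 times the expected peaks in WT, and 1.07 and 0.512 times in Prmt6KO.

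HoxC had 4 and 1 peaks in WT and 36 and 8 in Prmt6KO. Its ratios to the mean were 0.487 and 0.148 in WT and 0.876 and 0.368 in Prmt6KO, with a difference of 0.83 on the log2 scale and overlapping groups (WT -1.62 ± 0.94, Prmt6KO -0.79 ± 0.85, SD, n = 2 each, exact permutation p = 0.667). Without single libraries the difference ranged from 0.17 (without WT replicate 2) and 0.23 (without Prmt6KO replicate 1) to 1.43 (without Prmt6KO replicate 2) and 1.49 (without WT replicate 1). HoxC ends less than 2 Mb from the last peak of chromosome 15, so its neighbourhood was 2.80 Mb in place of 4 Mb.

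HoxD, whose genes pattern limbs and the genital region, went the other way. It held 2 and 3 peaks in WT, 11 in Prmt6KO replicate 1 and 1 in Prmt6KO replicate 2. That single peak was 0.0543 times the expected count (exact Poisson 95% interval 0.00137 to 0.303), and the other ratios were 0.288 and 0.523 in WT and 0.317 in Prmt6KO replicate 1. The difference was -1.43 on the log2 scale (WT -1.20 ± 0.53, Prmt6KO -2.64 ± 1.44, SD, n = 2 each, exact permutation p = 0.333). Both Prmt6KO values lay below both WT values on that scale, as in 17.5% of 100 kb bins, but the nearest values were -1.62 and -1.58, and without the added 0.5 WT replicate 1 is lower than Prmt6KO replicate 1. Without Prmt6KO replicate 2 the difference was -0.41, and without Prmt6KO replicate 1 it was -2.45, so its size rests on single libraries.

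Around HoxD, too, the Prmt6KO density relative to the library mean was below that of WT. In the 100 kb on either side WT had 13 and 20 peaks, 1.03 and 1.92 times the mean, and Prmt6KO had 20 and 14, 0.317 and 0.418 times the mean. The difference was -1.91 (WT 0.47 ± 0.61, Prmt6KO -1.43 ± 0.29, SD, n = 2 each, exact permutation p = 0.333), and here the groups were well apart. In the next 2 Mb on either side the ratio was 0.962 and 1.02 in WT and 0.523 and 0.326 in Prmt6KO (difference -1.26, exact permutation p = 0.333). Measured against that neighbourhood, HoxD itself was 0.299 and 0.512 in WT and 0.605 and 0.167 in Prmt6KO, with a difference of -0.22 and overlapping groups (exact permutation p = 1). Against the rest of chromosome 2 the difference was -0.97 (exact permutation p = 0.667), and -0.056 without Prmt6KO replicate 2 against -1.89 without Prmt6KO replicate 1. That chromosome was itself low in Prmt6KO. For the length of HoxD it gave 28.2 and 12.9 peaks in Prmt6KO, where the library means gave 34.8 and 18.4. In WT it gave 7.19 and 6.08, where the means gave 6.95 and 5.73. The share of the genome with such differences over the flanks or the 2 Mb is not given here.

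**Figure D2:**
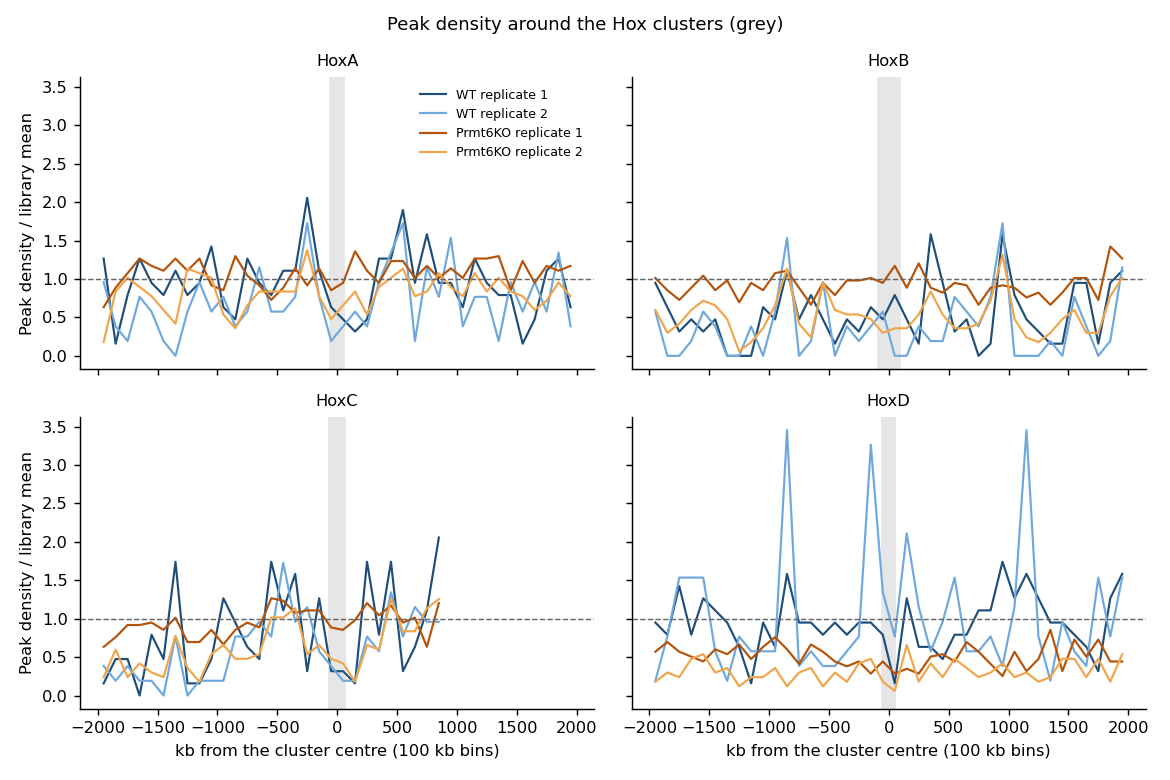
Peak density in bins of 100 kb, divided by the library mean (vertical axis), against the distance from the centre of each Hox cluster in kb, with 1 line per library and the cluster in grey. Taken over both sides of HoxD, the Prmt6KO density was below that of WT. It was 0.317 and 0.418 times the mean in the nearest 100 kb and 0.523 and 0.326 over the next 2 Mb. In many single bins the Prmt6KO and WT lines cross. The HoxC lines stop at the end of chromosome 15.

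Over the 4 clusters together the Prmt6KO libraries differed from WT by 0.24 on the log2 scale (WT -1.29 ± 0.43, Prmt6KO -1.05 ± 1.03, SD, n = 2 each), which is less than the spread between the Prmt6KO libraries. Against the rest of each cluster's chromosome the ratios were 0.50 and 0.344 in WT and 0.831 and 0.323 in Prmt6KO, a difference of 0.29. Without Prmt6KO replicate 1 both signs turned, to -0.49 against the library mean and -0.38 against the chromosome. Without WT replicate 2 the values were -0.06 and 0.040. With 2 Mb on either side as reference the ratios were 0.621 and 0.472 in WT and 0.914 and 0.491 in Prmt6KO. Every cluster in every WT and Prmt6KO library lay below 1 on that reference too, except HoxB in replicate 1 of both genotypes.

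In Igf2bp2KO no peak lay in any Hox cluster or in a Hox gene. The mean densities of these lists gave 0.202 and 0.256 peaks over the 4 clusters, so no peak is what the sizes of the lists allow, and a difference from WT was not detectable at this depth.

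The peaks that did lie in the clusters were weak. Their fold enrichment at the summit, the authors' ratio of signal to background, reached 3.66 and 3.28 in WT and 4.03 and 4.07 in Prmt6KO. Medians were 2.84 and 2.46 in WT against 2.84 and 2.87 over the whole lists, and 2.30 and 2.26 in Prmt6KO, the same as over the whole lists. In Prmt6KO replicate 1, 104 of 137 cluster peaks (75.9%) held at most 3 fragments at the summit, against 73.9% of its whole list. At a q of 0.05 or below 1 peak remained, in Prmt6KO replicate 2, where list means gave 1.04 and 0.572 peaks in WT and 0.847 and 1.22 in Prmt6KO. A share of strong peaks in the clusters different from that of the genome was therefore not detectable.

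That peak (chr6:52249008-52249343) held 8 fragments with a fold enrichment of 4.07 and a q of 0.0304. It lay in HoxA, 3346 bp from the nearest end of Hoxa11, a limb and reproductive tract gene, and overlapped no peak of another list. The strongest WT peak (chr2:74741957-74742254, WT replicate 1) held 8 fragments with a fold of 3.66 and a q of 0.0895, inside Hoxd3. The strongest of Prmt6KO replicate 1 were 2 peaks of 6 fragments with a fold of 4.03 and a q of 0.0656. One (chr11:96314940-96315226) lay inside Hoxb3, and the other (chr11:96244859-96245346) lay 26179 bp from the end of Hoxb9.

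The overlap of the WT replicates was too sparse to set apart from that of the whole lists. None of the 17 peaks of WT replicate 1 overlapped any of the 9 of WT replicate 2 by 1 bp or more, where 6.06% and 7.34% of the whole WT lists overlapped the other replicate. In Prmt6KO 7 of 137 peaks (5.11%) and 7 of 26 (26.9%) overlapped, against 11.5% and 21.6% of the whole lists. The share was thus lower than that of the list in Prmt6KO replicate 1 and higher in Prmt6KO replicate 2, and neither was tested. Between genotypes, 6 of 17 peaks of WT replicate 1 (35.3%) overlapped a peak of Prmt6KO replicate 1, against 21.6% of its whole list. A single place was listed in 3 libraries, at the outer edge of HoxC about 6 kb before Hoxc13, a gene of hair and nail growth. There WT replicate 1 had 7 fragments (chr15:102914822-102915021, fold 3.25), Prmt6KO replicate 1 had 3 (chr15:102914976-102915175, fold 2.30) and Prmt6KO replicate 2 had 4 (chr15:102914353-102914988, fold 2.26). Its q was 0.294 or more in these lists.

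Within the clusters, the share of peaks in genes was no higher than the share of bases there. Hox gene bodies make up 51.6% of the 540 kb and held 6 of 17 (35.3%) and 2 of 9 (22.2%) peaks in WT, and 61 of 137 (44.5%) and 5 of 26 (19.2%) in Prmt6KO. The exact binomial 95% intervals were 14.2% to 61.7% and 2.81% to 60.0% in WT, and 36.0% to 53.3% and 6.55% to 39.4% in Prmt6KO, so that of Prmt6KO replicate 2 alone lay below the share of bases. The longest stretch without a summit was 146.7 kb in WT replicate 2, from chr11:96223321 to the end of HoxB, with 9 of its 10 genes inside. In the same library 126.2 kb of HoxC with all 9 genes and 97.5 kb of HoxA with 10 of 11 genes were free of summits. In Prmt6KO replicate 2 such stretches were 83.6 kb in HoxD and 82.9 kb in HoxB, and in Prmt6KO replicate 1, the densest list, 43.2 kb in HoxD and 8.99 to 14.5 kb in the other clusters.

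**Figure D3:**
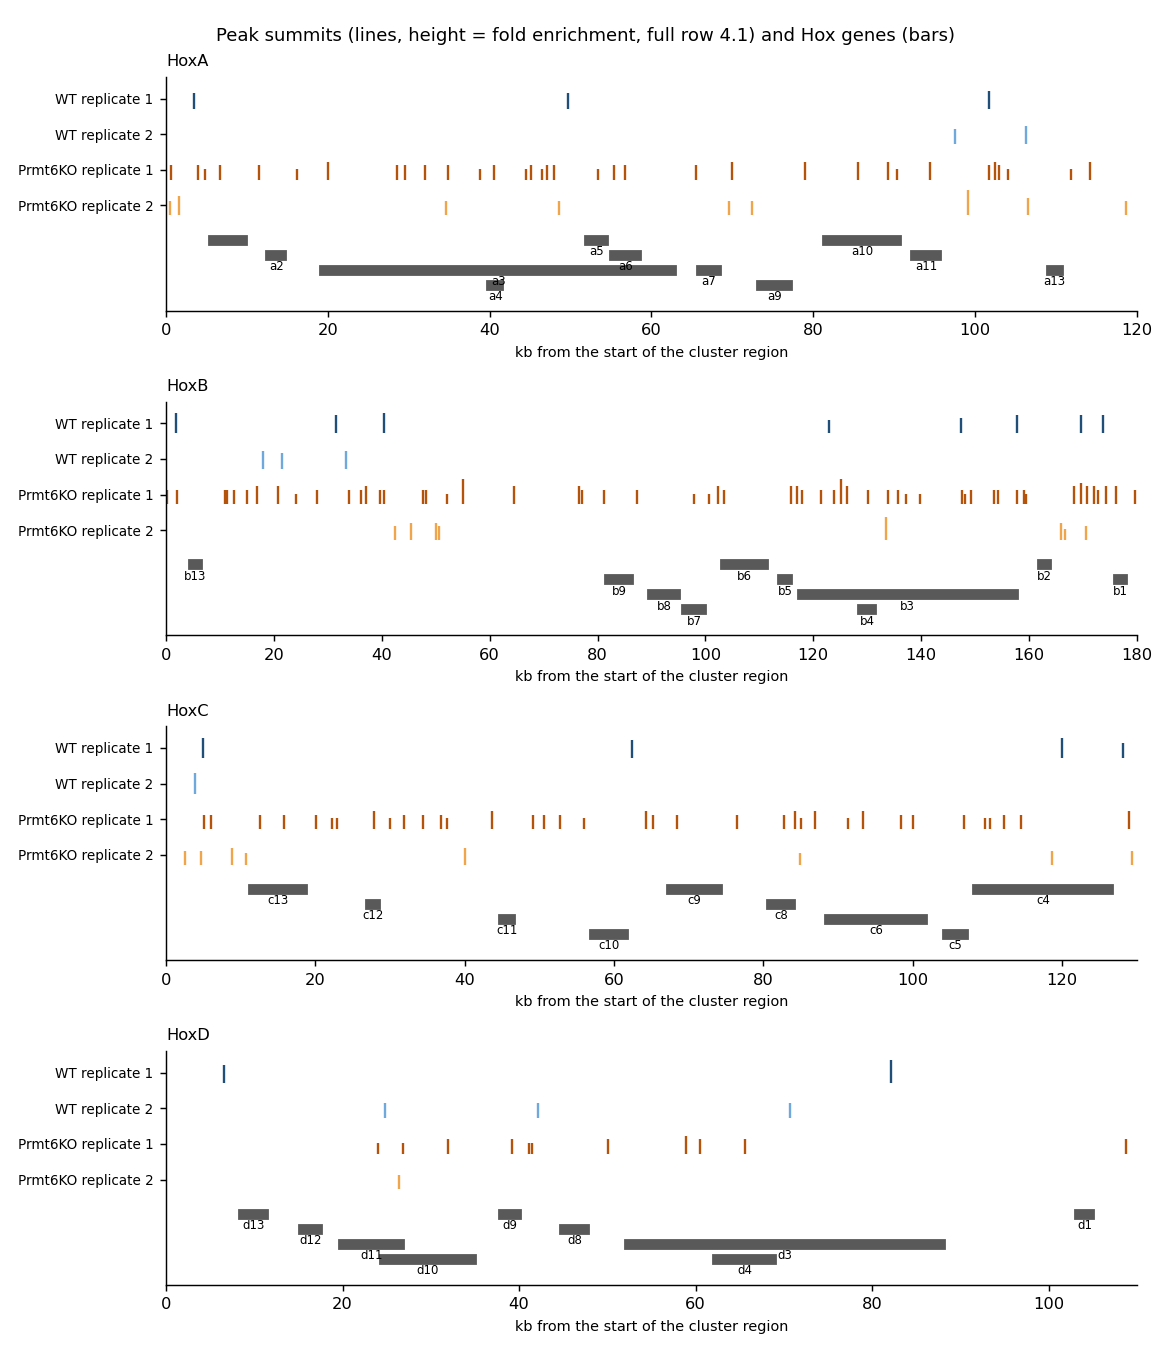
Peak summits (vertical lines, height in proportion to the fold enrichment) of the WT and Prmt6KO libraries along each Hox cluster, against the distance in kb from the start of the cluster region, with the Hox genes as grey bars. WT rows hold 17 and 9 summits with none shared with each other, and a stretch of 43.2 kb of HoxD is free of summits in both Prmt6KO rows.

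Counted in bins of 10 kb, 37 of the 54 cluster bins (68.5%) lacked a summit in WT replicate 1 and 45 (83.3%) in WT replicate 2, where 56% and 62.1% of all bins of the genome did. In Prmt6KO it was 5 (9.26%) in replicate 1 against 3.89% of the genome, and 34 (63.0%) in replicate 2 against 21.8%. Pooled, the clusters exceeded the genome in each library, by 12.6 and 21.2 percentage points in WT and 5.37 and 41.1 in Prmt6KO. All 5 empty bins of Prmt6KO replicate 1 lay in HoxD, so its excess comes from that cluster alone.

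At the level of genes, a peak within 1 kb of either end of the gene (the gene-end window, since the table used gives no strand) was found in a smaller share of Hox genes than of all genes in each WT and Prmt6KO library. It was found in 2 and 1 of the 39 Hox genes in WT (5.13% and 2.56%), where 18.4% and 12.9% of all genes had one. In Prmt6KO it was found in 24 (61.5%) in replicate 1, against 72.5% of all genes, and in 5 (12.8%) in replicate 2, against 38.3%. No Hox gene had one in both WT libraries, against 3.56% of all genes, and 36 (92.3%) had one in neither, against 72.2%. For Prmt6KO the number with none in either library was 13 (33.3%), against 18.2% of all genes. In both Prmt6KO libraries 3 did (7.69%), against 29% of all genes. These 3 had none in WT and count as gained, against 18.6% of all genes. Of all genes 0.425% were lost, but no Hox gene could be, since a loss needs a gene-end peak in both WT libraries. No Hox gene had a gene-end peak in Igf2bp2KO, against 0.25% of all genes in each list.

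The 3 gained genes were Hoxa7, Hoxc8 and Hoxd11, 1 each in HoxA, HoxC and HoxD. At Hoxa7 (chr6:52215623-52218573), a leukemia-associated gene, Prmt6KO replicate 1 had a peak of 3 fragments at one end (chr6:52215347-52215877, fold 2.30) and Prmt6KO replicate 2 one of 4 fragments at the other (chr6:52219470-52219669, fold 2.26). The call thus rests on 2 places that do not overlap. At Hoxc8 (chr15:102990539-102994275), a gene of trunk patterning, Prmt6KO replicate 1 had its stronger peak of 4 fragments at chr15:102994156-102994399 (fold 2.88) and a weaker one of 2 fragments at chr15:102994846-102995212. The weaker peak overlapped that of Prmt6KO replicate 2, which held 3 fragments (chr15:102994774-102994973, fold 1.81). At Hoxd11 (chr2:74679558-74687016), a limb gene, the peaks held 2 fragments (chr2:74686693-74687055, fold 1.73) and 4 fragments (chr2:74686245-74686444, fold 2.26) and did not overlap. Hoxc8 was the one gene of the 3 with a shared place.

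Of Hoxa5, Hoxa9, Hoxa10 and Hoxb4, genes known from blood stem cells and leukemia, none had a gene-end peak in more than 1 library. Hoxa9 (chr6:52223097-52227370), the best known of them, had one of 4 fragments in Prmt6KO replicate 2 (chr6:52222365-52222564, fold 2.26) and none in the other 3 libraries. Hoxa10 (chr6:52231197-52240854), its neighbour, had one of 2 fragments in Prmt6KO replicate 1 (chr6:52240126-52240513, fold 1.73). Hoxa5 (chr6:52201754-52204587) had one of 3 fragments in Prmt6KO replicate 1 (chr6:52205291-52205490, fold 2.30), which also counts for Hoxa6. Hoxb4 (chr11:96318267-96321638) had no gene-end peak in any library. The nearest shared place lay in Hoxb3 1859 bp from the end of Hoxb4, with 7 fragments in Prmt6KO replicate 2 (chr11:96323335-96323606, fold 3.62) and 3 in Prmt6KO replicate 1 (chr11:96323405-96323917, fold 2.30).

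In WT the gene-end peaks were those of Hoxb3 and Hoxc10 in replicate 1 and of Hoxd10 in replicate 2. The Hoxb3 peak (chr11:96347761-96347960) and the Hoxc10 peak (chr15:102972275-102972561) held 6 fragments each with a fold of 2.84. The Hoxd10 peak (chr2:74684775-74684974) held 5 with a fold of 2.46. The highest gene-end fold in Prmt6KO was 2.88, from 4 fragments in replicate 1, and 8 genes shared it: Hoxa3, Hoxb1, Hoxb3, Hoxb5, Hoxb6, Hoxc8, Hoxc11 and Hoxc12. Prmt6KO replicate 2 had a gene-end peak at 1 of these, Hoxc8.

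By cluster, Prmt6KO replicate 1 had a gene-end peak in 9 of 11 HoxA genes, 6 of 10 HoxB genes, 6 of 9 HoxC genes and 3 of 9 HoxD genes. Prmt6KO replicate 2 had one in 2, 0, 2 and 1. With the whole gene and 1 kb on either side counted, 7 Hox genes had no peak in any WT or Prmt6KO library. These were Hoxb2, Hoxb8 and Hoxb13 in HoxB, and Hoxd1, Hoxd8, Hoxd12 and Hoxd13 in HoxD. They are 7 of 39 (17.9%), against 4.1% of all genes. In WT 32 of 39 (82.1%) had none, against 33.9%, and no Hox gene had one in all 4 libraries, against 37.2%. This window grows with the gene, and Hox genes are short, with a median of 3.74 kb against 17.3 kb, so these shares are not matched for length.

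At the promoters peaks were few in all genes. Of the 24 Hox promoter windows, 250 bases before to 50 after the start, 10 belong to HoxA, 10 to HoxD, 3 to HoxB and 1 to HoxC. None held a peak in WT, where 1.91% and 1.15% of all 32619 windows did. In Prmt6KO the window of Hoxd10 held one in replicate 1 (chr2:74691801-74692000, 3 fragments, fold 2.30), against 14% of all windows, and none did in replicate 2, against 4.95%. Those shares give 0.458 and 0.277 windows in WT and 3.36 and 1.19 in Prmt6KO. With counts this small, a difference of the Hox windows from all windows was not shown in any WT or Prmt6KO library. Within 1 kb of the start, 0 and 0 windows held a peak in WT and 6 (25%) and 1 (4.17%) in Prmt6KO, against 9.45%, 5.75%, 48.2% and 20.7% of all promoters.

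Counted over all promoters, the windows richest in G and C held peaks least often in each WT and Prmt6KO list. Promoters were put in 5 groups by their content of G and C, from a median of 39.7% to a median of 69.3%. From the lowest to the highest group the share with a peak went from 4.51% to 0.165% in WT replicate 1 and from 3.42% to 0.0450% in WT replicate 2. In Prmt6KO it went from 18.1% to 4.99% in replicate 1, where the second group was highest with 20.2%, and from 10.5% to 0.811% in replicate 2. The Hox windows had a median of 57.7% G and C against 53% of all windows, and a median of 14.5 CG pairs against 7, and 8 and 5 of the 24 fell in the 2 groups richest in G and C. With each Hox window given the share of its own group, the expected number was 0.335 and 0.182 in WT and 3.06 and 0.925 in Prmt6KO. The content of G and C of whole clusters was not examined, and its part in their sparse peaks was not tested.

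**Figure D4:**
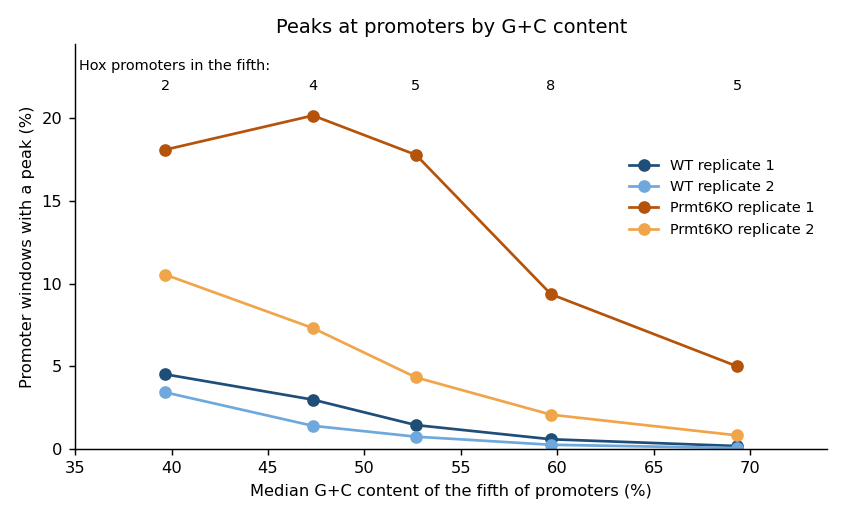
Share of promoter windows with a peak in percent (vertical axis) in 5 groups of promoters ordered by content of G and C (horizontal axis, median of each group in percent), with 1 line per library. The share in the richest group, 0.165% and 0.0450% in WT and 4.99% and 0.811% in Prmt6KO, is the lowest of each line.

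At the miRNA hairpins of the clusters, peaks within 1 kb were found at Mir196a-2 in WT replicate 1, at none in WT replicate 2 and Prmt6KO replicate 2, and at Mir10a, Mir196a-2 and Mir10b in Prmt6KO replicate 1. Mir196a-2 lies in HoxC at chr15:102973350-102973434, and its nearest summits held 6 fragments at 0.943 kb in WT replicate 1 and 4 at 0.859 kb in Prmt6KO replicate 1. Mir10a lies in HoxB at chr11:96317165-96317274 and its summit in Prmt6KO replicate 1 held 4 fragments at 0.868 kb. The summit near Mir10b (chr2:74726070-74726137) in the same library held 3 at 0.525 kb. The counts were 1, 0, 3 and 0 of the 5 hairpins matched, where the shares over all 1005 hairpins, 8.06% and 6.97% in WT and 50.1% and 20.5% in Prmt6KO, give 0.403, 0.348, 2.51 and 1.02. A difference from other hairpins was not detectable. The hairpin of Mir615 was not among those matched.

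Of the genes beside the clusters, Evx2 was the one that differed between both libraries of WT and both of Prmt6KO. Evx2 (chr2:74652989-74661520) is the homeobox gene next to Hoxd13. It had a gene-end peak in WT replicate 1 (chr2:74652786-74652985, 5 fragments, fold 2.44) and in WT replicate 2 (chr2:74653974-74654173, 7 fragments, fold 3.28), at separate places, and none in either Prmt6KO library. It was therefore lost, as were 0.425% of all genes. Evx2 lies in the stretch of chromosome 2 where Prmt6KO density was low on both sides of HoxD, and a link of the loss to that density was not tested. On the other side Mtx2, a gene of a mitochondrial import protein, had no gene-end peak in the 4 libraries but 7 and 7 peaks in its body in WT and 4 and 7 in Prmt6KO. Lnpk, beyond Evx2, encodes a protein that shapes the endoplasmic reticulum and had 3 and 14 body peaks in WT and 6 and 5 in Prmt6KO. Evx1, the homeobox gene beside HoxA, had a gene-end peak of 3 fragments in Prmt6KO replicate 1 (chr6:52314247-52314497, fold 2.30). Beside HoxB, Skap1, an adaptor of T cell receptor signalling, had 18 and 3 body peaks in WT and 95 and 31 in Prmt6KO. Ttll6, which adds glutamate chains to tubulin, had 0 and 1 against 13 and 5, and Calcoco2, an autophagy receptor, had 2 and 0 against 7 and 2. These raw counts carry the difference in list size between the genotypes. The 100 kb beside HoxC hold no protein-coding gene of the table.

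For comparison, 44 genes of proteins that regulate or partner Hox genes (MLL and Polycomb subunits, TALE cofactors, CDX factors) and 50 other developmental homeobox genes were counted the same way. The regulators had a gene-end peak in 5 and 4 genes in WT (11.4% and 9.09%) and in 33 and 11 in Prmt6KO (75% and 25%). None was called in both WT libraries, against 3.56% of all genes. In both Prmt6KO libraries 9 were called (20.5%), against 29% of all genes. Of the 44 genes 7 were gained (15.9%), against 18.6% of all genes. None could be lost, since none was called in both WT libraries, where 0.425% of all genes were lost. The gained genes included Suz12 and Eed, core Polycomb subunits. Their folds in the Prmt6KO replicates were 2.30 and 3.62 for Suz12 and 2.30 and 2.72 for Eed. Ezh2, the Polycomb methyltransferase, had 1.73 and 2.72. Psip1, which tethers MLL to chromatin, had 2.30 and 3.62, and Dpy30, an MLL complex subunit, had 2.88 and 2.72. Cdx4, an activator of Hox genes in blood progenitors, had 2.88 and 2.26, and Mllt3, a fusion partner of MLL, had 1.73 and 2.26.

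The other homeobox genes had a gene-end peak in 3 and 6 genes in WT (6% and 12%) and in 34 and 13 in Prmt6KO (68% and 26%). Both WT libraries had one at 2 genes (4%), against 3.56% of all genes. These were Evx2 and Lhx9, a gene of limb and gonad whose folds were 3.25 and 2.46. Both Prmt6KO libraries had one at 11 genes (22%), against 29% of all genes. All 11 were gained, against 18.6% of all genes. Evx2 was the one lost (2%), against 0.425%. Otx2, a gene of forebrain and eye, had the highest folds with 3.46 and 3.62 in the Prmt6KO replicates. Six6, also of the eye, and En2, of the midbrain, each had 2.88 and 3.17, and Dlx6, of the jaw and limb, had 2.88 and 2.72. The share with a gene-end peak in both Prmt6KO libraries was thus 7.69% for Hox genes, 20.5% for the regulators, 22% for the other homeobox genes and 29% for all genes. These shares are counts without a test, and neighbouring Hox genes are not independent of each other.

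**Figure D5:**
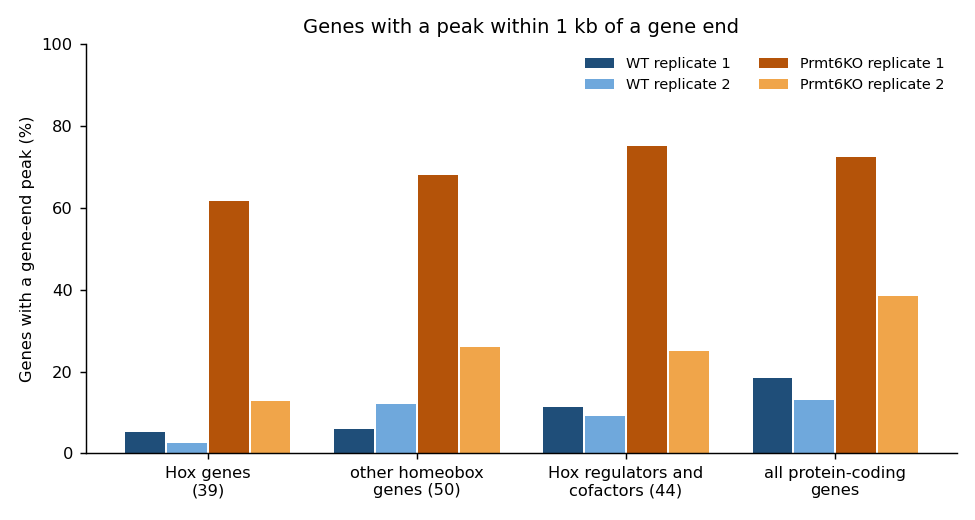
Percent of genes with a gene-end peak (vertical axis, from 0) in each WT and Prmt6KO library for Hox genes, their regulators and cofactors, other developmental homeobox genes and all protein-coding genes. In each library the bar of the Hox genes, from 2.56% to 61.5%, is the lowest of the 4.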

How the data were processed

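The 6 H3R2me2a peak lists of 3 genotypes were used as deposited. Tools named in the submitters' processing notes are HISAT2, Trim Galore, bedtools, bcl2fastq 2.17 and MACS2 2.1.0, with the build mm10 and no settings. Each list holds peaks called on 1 library. Per the file headers, the authors' tables give each peak's fold enrichment, which compares the summit with the background, and its pileup, a coverage signal that is in whole fragments in WT and Prmt6KO. In Igf2bp2KO the deposited pileup came in fractional steps. It was divided by the step that fitted it best within a range set beforehand, 0.277 in replicate 1 and 0.302 in replicate 2. The fragment counts of Igf2bp2KO are therefore estimates. The −log10 of the p-value and of the q-value are as deposited from the peak caller. The background in fragments was recovered from fold and pileup.

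A peak belonged to a region when its summit lay inside. Expected counts came from the library's mean density over the 2571 Mb between first and last peaks, from the rest of the chromosome, or from 2 Mb beyond 100 kb on either side. Ratios were compared as log2 of (observed + 0.5)/(expected + 0.5), with WT and Prmt6KO tested per cluster by the two-sided exact permutation test over 6 splits, whose smallest p is 0.333. The 4 clusters together are given without a p. Gene positions and promoters came from RefSeq tables of GRCm38.p6. Overlap meant 1 shared bp. A gene was gained where both Prmt6KO libraries and neither WT library had a gene-end peak, and lost in the opposite case. Counting was tested on simulated peaks. Python 3.11.15, pandas 2.3.3 and SciPy 1.17.1 were used.

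The Hox genes, regulator, homeobox and marker lists, regions and alternatives were chosen with earlier results of these data known. Named were Hoxa5, Hoxa7, Hoxa9, Hoxa10 and Hoxb4, the Hox genes called in both libraries of a genotype, the highest gene-end folds, the genes beside the clusters and, of the 2 comparison lists, the called or gained genes with the highest lower fold (up to 6 each, 7 where tied). Of the 39 Hox genes 1 is counted throughout and not reported by name here. Alternatives covered peak thresholds, windows, bins, pseudocounts, references and left-out libraries. The replicate numbers are not stated to pair libraries.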

Additional observations from a re-analysis of the deposited data

How the results depend on the processing

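Of 186 alternative values 145 were counted as the same, 20 changed sign and 21 moved. For the densities this meant the same sign, whatever the size. For the excess of empty bins in Prmt6KO it also took in large changes of size, given below. No test could pass 0.05 with 2 libraries against 2, so p-values say nothing on stability here. The pooled Prmt6KO difference kept its sign under thresholds (with at most 3 cluster peaks per library at the strict ones), pseudocounts and regions, and ranged from -0.49 to 0.97 when single libraries were left out (-0.06 without WT replicate 2), and from -0.38 to 0.97 against the chromosome. HoxD against the library mean stayed below 0, from -2.45 to -0.41 with single libraries left out and at -1.88 with summits of at least 4 fragments. No HoxD or HoxC peak of any WT or Prmt6KO library passed a q of 0.05, a fold of 4 or 6 times the background, and no HoxB peak that q, so their values there come from the expected counts and the pseudocount and show nothing on stability.

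Among the values below, those of HoxC and HoxD, and of HoxB at that q, are of this kind. With summits of at least 6 times the background the difference became -0.43 in HoxA, -0.019 in HoxB and -1.27 in HoxC. With a q of 0.05 or below it became -0.14 in HoxB, and in HoxC -0.11 against either reference. HoxD against the chromosome became 0.043. With a fold of at least 4, HoxC became -0.54 against either reference and HoxB against the chromosome 0.55. HoxB against the chromosome was also above 0 by bases covered (0.015) and by summits of at least 4 fragments (0.049), an alternative chosen after seeing the data. Leaving out single libraries moved HoxB from -0.86 to 0.97, and from -0.86 to 0.72 against the chromosome. The pooled Igf2bp2KO difference, 0.74 with no peak in the clusters, became -0.30 with 100 kb on either side, so its sign rests on the pseudocount. The cause of the changes in HoxA and HoxB and of those with libraries left out was not tested.

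Hox genes called in both Prmt6KO libraries were 10 with windows of 2.5 kb, 8 with whole genes and 1 kb, and 0 with a q of 0.05, with a fold of 4 and with at least 4 fragments. One library alone gave 5 and 24. Gained genes were 6, 3, 0, 0 and 0 under the same alternatives, and 3 to 21 with single libraries left out. In WT 1 gene was called with whole genes, and 1 and 2 with single libraries. The shares of all genes with these windows and thresholds are not given here. These counts therefore do not compare Hox genes with other genes. The excess of empty bins in WT, 16.9 points, was 28.7 with bins of 20 kb and 1.18 with a q of 0.05 and with a fold of 4, where nearly all bins are empty. That in Prmt6KO, 23.25 points, fell to 0.721 with a q of 0.05 and to 0.905 with a fold of 4. It was 41.1 without Prmt6KO replicate 1 and 5.37 without Prmt6KO replicate 2. Prmt6KO promoter windows with a peak, 1 in all, were 7 within 1 kb of the start, and 0 and 1 with a single library.

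With the replicate block, the mean difference between same-numbered libraries was 0.24 for the pooled density (exact sign-flip p = 1, smallest possible 0.5), 0.29 against the chromosome and 0.74 for Igf2bp2KO, the same as without it. The deviations of same-numbered WT and Prmt6KO libraries correlated with r = 0.54 over 2414 bins of 1 Mb, but 2 pairs do not show that the numbers pair the libraries. Few peaks limit the precision: WT clusters held 1 to 8 each.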
